A study of Mus musculus with 2 samples.

Results

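The miR-297, miR-466, miR-467 and miR-669 families are groups of rodent microRNAs (miRNAs), most of them cut from hairpins that lie in an intron of the mouse gene Sfmbt2. Members were chosen by name, as every mouse miRNA on the array called miR-297, miR-466, miR-467 or miR-669 with any letter and arm ending. This gave 61 of the 1247 mouse miRNAs on the array, with 162 of its 3101 probes: 3 in the miR-297 family, 23 in the miR-466 family, 12 in the miR-467 family and 23 in the miR-669 family. The families themselves were selected on earlier results of these arrays, in which 5 members stood among the 12 lowest differences. Those were miR-669h-3p, miR-466f-3p, miR-466g, miR-466m-3p and miR-466i-3p. All differences below therefore describe 2 arrays and carry no test.

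The study asked which miRNAs differ in cartilage when mTORC1, the growth-controlling kinase complex that the Tsc1 protein holds in check, is no longer restrained. Total RNA came from knee joint cartilage of male mice at 8 weeks of age. The control sample is labelled wildtype, and the Col2a1Tsc1KO sample came from mice in which Tsc1 was deleted with Col2a1 specificity, Col2a1 being the cartilage collagen gene that chondrocytes express. Each group had 1 one-colour Agilent miRNA array. The sources used here state neither the number of mice behind each sample nor the share of cells that lost Tsc1. A miRNA array has no probe for Tsc1 mRNA, so the label could not be checked against the deleted gene. Both arrays lay on 1 slide, and position on the slide and genotype cannot be told apart.

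A miRNA is cut from a hairpin precursor, and each of its arms, 5p and 3p, can give a mature strand. A mature miRNA guides repression of mRNAs that match its seed, bases 2 to 8 from the 5′ end. The families here arose by repeated duplication of short hairpins in the rodent lineage, and many of their strands are rich in alternating G and U or A and C. Sfmbt2 encodes a Polycomb-group protein and is known as an imprinted gene with a role in the placenta. Near-identical strands are hard to tell apart by hybridisation, so a probe can hold signal of more than 1 member.

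Of the 61 members, 7 had a mature sequence in the RefSeq table used here (GRCm38.p6), and 4 of these 7 gave signal on both arrays. The mature strands of those 4 are shown because they make the repeat visible beside the seed, which is in capitals.
miR-466i-3p: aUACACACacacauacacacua
miR-466q: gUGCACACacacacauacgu
miR-467f: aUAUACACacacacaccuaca
miR-669n: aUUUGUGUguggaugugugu
All 4 seeds were different, and so were the seeds of all 7. The other 3 with a mature sequence, miR-466j, miR-466k and miR-467g, gave no signal above background.

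The array reads each miRNA with DNA probes complementary to its 3′ end. For the members with a mature sequence, 16 of 16 probes were exact complements of the 3′ end and left 0 to 6 bases of the 5′ end uncovered, so part of the seed lies outside most of these probes. The probes below are those on which the following comparisons turn, printed 5′ to 3′, with the longest run of alternating G and T or A and C in capitals.
miR-466f-3p: gtgtgtaTGTGTGTGTG
miR-466g: TGTGTGTGcatgtgtc
miR-466h-3p: GTGTGTGTGTGcgt
miR-466i-3p: tagtgtgtaTGTGTGTGTG
miR-466i-5p: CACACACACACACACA
miR-669f-3p: atacGTGTGTGTGTatgt
miR-669p-3p: atacGTGTGTGTGTGTat
miR-669h-3p: tgtgcaTGTGTGTatatg
miR-669h-5p: gcactcaactatACACcc
miR-467c-5p: CACAtatacatgcacgcac
A probe of miR-466i-5p consisted of the repeat from end to end, whereas that of miR-669h-5p held no run beyond 4 bases. No 2 members shared a probe sequence. Still, probes of 4 members were contained whole in a probe of another member, among them miR-466f-3p in miR-466i-3p and miR-466f-5p in miR-669b-5p. The array lists 11 members together with further family names, 5 of them among the 20 that gave signal. Thus miR-669f-3p also stands for miR-669a-3p and miR-669o-3p, and miR-669n for miR-669c-5p. In the same way, miR-669b-5p stands for miR-297a-5p and miR-466f, miR-669l-5p for miR-467h and miR-669d-5p, and miR-466m-5p for miR-669m-5p.

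Signals are background-subtracted intensities averaged on the log2 scale over the replicate spots of a probe. A probe was taken as measured on an array if over 50% of its spots bore the software's mark for signals well above background. To scale the arrays, the 75th percentile over the 476 probes measured on both was made equal, and scaled intensities are given in arbitrary units. A difference is the knockout minus the control value on the log2 scale, averaged over a miRNA's probes measured on both, and ± is the standard error over spots within the arrays. That error holds technical noise of 1 array per group and says nothing of the spread between mice. A log2 difference of 1, which is 2-fold, served for counts only. The arrays had 19.6% (control) and 21.1% (knockout) of their miRNA spots well above background, and no spot of a member was saturated.

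Of the 61 members, 14 were measured on both arrays, 6 on the control array alone, 0 on the knockout array alone and 41 on neither. Among all 1247 miRNAs these counts were 257, 24, 39 and 927, so members made up 25% of the miRNAs seen on the control array alone and 0% of those seen on the knockout array alone. The measured members were 7 of the miR-466 family, 1 of the miR-467 family and 6 of the miR-669 family. None of the 3 members named miR-297 gave signal. However, miR-669b-5p, which was measured on the control array alone, also stands for miR-297a-5p. The software's own detection call counted 16 members on both arrays, 7 on the control array alone and 2 on the knockout array alone, miR-467b-5p and miR-467e-5p. Over all miRNAs its counts were 304, 23 and 44.

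All 14 members measured on both had a lower scaled level in the knockout, 12 by at least 2-fold (85.7%), and 0 at least 2-fold higher. Over all 257 measured miRNAs, 17.5% were at least 2-fold lower and 15.6% at least 2-fold higher. Since the families were picked for low values in this same contrast, nothing is read from the gap between these shares. The members' median difference was -1.31, or 2.48-fold lower, with a range from -1.68 to -0.12. The median was -0.22 over all 257 and -0.18 over the 243 measured miRNAs outside the families. The size depended on the scaling: with no scaling between arrays the median of all 257 was 0.19, and 13 members were lower. Without scaling 5 members were at least 2-fold lower, beside 5.06% of all 257. They were miR-466f-3p, miR-466g, miR-466i-3p, miR-466m-3p and miR-669h-3p. After normexp background correction, which adds a constant of 50 to all signals, and quantile normalization, 13 were lower with a median of -0.59, and only miR-466i-5p was at least 2-fold lower, beside 1.17% of all 257. The median of all measured miRNAs moves with the scaling. The members' median minus that median was -1.09 with the reported scaling and with none, and -0.57 after normexp and quantile normalization. For the same reason as above, nothing is read from this gap.

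**Figure D1:**
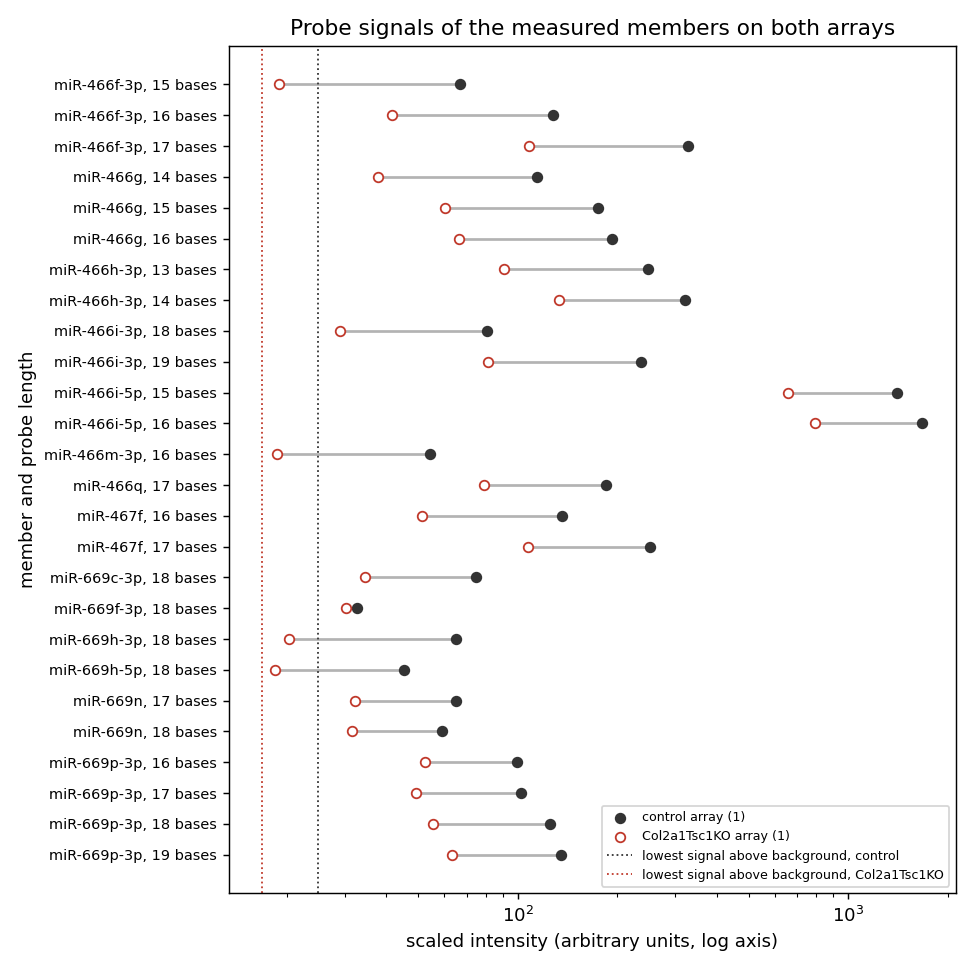
Scaled intensity (arbitrary units, log axis) of each member probe well above background on both arrays, with filled points for the control array, open points for the knockout array and dotted lines at the lowest signal above background on each. All 26 probes lie further left on the knockout array, and the 2 points of miR-669f-3p nearly coincide.

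In the miR-466 family, the largest of the 4 by measured members, all 7 were lower by 2-fold or more in the knockout, with a median difference of -1.51. miR-466f-3p had a scaled intensity of 141 in the control and 44.1 in the knockout, a difference of -1.67 ± 0.03. For miR-466g the intensities were 157 and 53.3 (-1.56 ± 0.03). miR-466m-3p was read by a single usable probe and went from 54.3 to 18.7 (-1.54 ± 0.06), close to the lowest signal still above background on the knockout array, 16.9. These 3 were the lowest of the family and held ranks 5 to 7 from the bottom among the 257 miRNAs.

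The remaining miR-466 members came next. miR-466i-3p, whose mature strand is shown above, had 138 in the control and 48.5 in the knockout (-1.51 ± 0.03), and miR-466h-3p had 282 and 110 (-1.36 ± 0.02). miR-466q had 185 and 78.9 (-1.23 ± 0.03), read by a single usable probe. Its 16-base probe had 25% of its control spots and 15% of its knockout spots above background. Where probes with any spot above background entered, its difference was -0.97, short of 2-fold. miR-466i-5p, the strand read by the pure repeat probes, had 1537 and 722 (-1.09 ± 0.01). This was the smallest difference of the family here and in 8 of the 14 alternatives, while with normexp it was the largest, at -1.09. Within the family the differences thus spanned more than their errors over spots.

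The miR-467 family was represented by miR-467f alone, with 185 in the control and 74.2 in the knockout, a difference of -1.32 ± 0.02. Its 16-base and 17-base probes gave -1.40 ± 0.03 and -1.23 ± 0.03.

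The miR-669 family was the least uniform. Its median difference was -1.09, and 4 of its 6 measured members were at least 2-fold lower. miR-669h-3p, with 65.0 in the control and 20.3 in the knockout, had the lowest difference of all members (-1.68 ± 0.07). miR-669h-5p had 45.4 and 18.4 (-1.30 ± 0.07). miR-669c-3p went from 74.7 to 34.6 (-1.11 ± 0.04). miR-669h-3p, miR-669h-5p and miR-669c-3p were each read by a single usable probe. The knockout values of miR-669h-3p and miR-669h-5p were close to 16.9, the lowest signal still above background on that array. The 19-base probe of miR-669h-3p was above background on the control array alone, with 30% of its knockout spots so marked.

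miR-669p-3p and miR-669n stood on either side of the 2-fold threshold. The first had 115 and 55.0 (-1.06 ± 0.03) and the second 62.1 and 31.9 (-0.96 ± 0.04). miR-669f-3p was the exception of the families, with 32.7 and 30.2 (-0.12 ± 0.06), which put it at rank 142 of 257 from the bottom and above the median of all miRNAs. Before scaling its mean intensity was 28.6 in the control and 35.0 in the knockout, and its direction turned positive under 8 of the 14 alternative ways of processing. miR-669f-3p was read by a single usable probe, and its 17-base probe had 0% of its spots above background on both arrays. Its control value lay close to the lowest signal above background there, 24.9. On the knockout array that lowest signal was 16.9, so a large fall from 32.7 could not have been given as a difference.

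**Figure D2:**
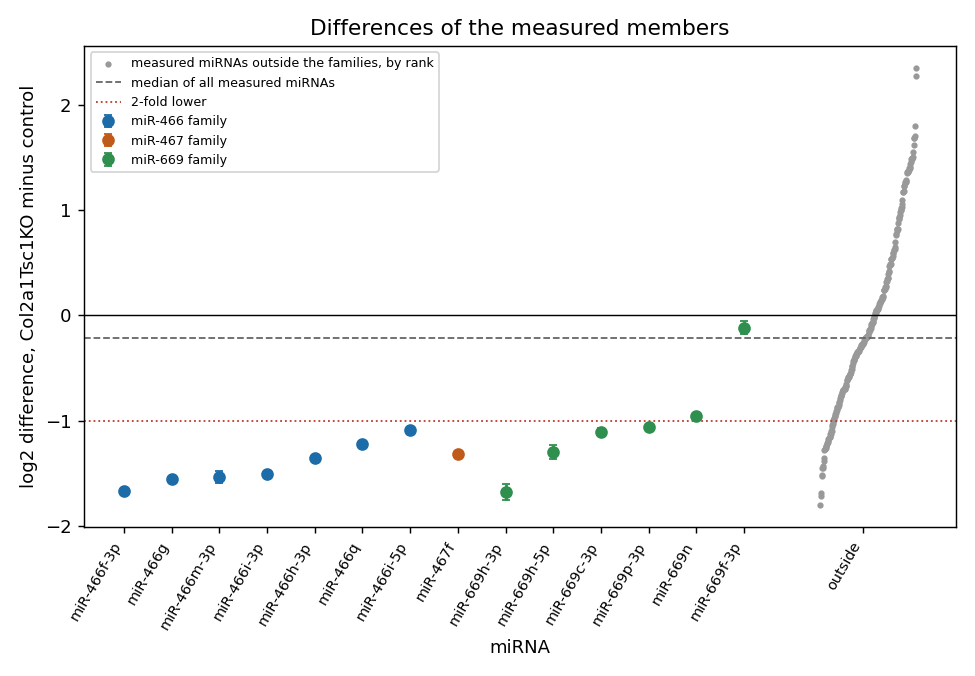
Log2 difference, knockout minus control, of the 14 measured members with the standard error over spots, coloured by family, beside the 243 measured miRNAs outside the families in rank order. The members lie between -1.68 and -0.12, and miR-669f-3p alone lies above the median of all measured miRNAs (dashed line at -0.22).

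The probes of a member gave similar values. All 26 member probes measured on both arrays were lower in the knockout, 23 by at least 2-fold, and each rested on 7 to 20 usable spots per array. In the 8 members with more than 1 such probe, the spread between probes ran from 0.02 for miR-466i-5p to 0.25 for miR-669p-3p, whose 4 probes gave -0.92, -1.05, -1.18 and -1.09 at lengths of 16, 17, 18 and 19 bases. A further 8 member probes were above background on the control array alone, and 0 on the knockout array alone. No share over all miRNA probes stands beside these counts, and the families were picked for low values in this contrast. Nothing is therefore read from the counts of probes.

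Probes with closely related letters did not always give the same difference. The 18-base probes of miR-669f-3p and miR-669p-3p, both printed above, share their first 14 letters and differ at 2 positions. They gave -0.12 ± 0.06 and -1.18 ± 0.06, a gap of -1.06 ± 0.08. In contrast, the 16-base probes of miR-466g and miR-466m-3p differ at 3 positions and gave -1.53 ± 0.05 and -1.54 ± 0.06, which agree within the error over spots. miR-466f-3p, whose probes are contained in those of miR-466i-3p, gave -1.67 against -1.51 for the latter. Whether cross-hybridisation among these probes took part in their values was not tested.

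The arms of a hairpin could be compared in 18 cases, where the array has a 3p and a 5p member of the same name. Both arms were measured for 2 of them. In miR-466i the 3p strand had -1.51 and the 5p strand -1.09, but their order turned in 3 of the 14 alternatives: -1.30 and -1.42 with quantile normalization, -0.72 and -1.09 with normexp, and -1.43 and -1.51 in the deposited log2 values. In miR-669h the 3p strand had -1.68 and the 5p strand -1.30, and the 3p value was the lower in all 13 alternatives that gave both. For the miR-466f, miR-466h and miR-466m hairpins, the 3p strand was measured on both arrays and the 5p strand was above background on the control array alone. For miR-467c, miR-669b and miR-669l only the 5p strand gave signal, again on the control array alone. In miR-669f the 3p strand hardly differed, while the brightest 5p probe had an unscaled intensity of 19.98 on the control array, with 40% of its spots above background, and 2.47 on the knockout array, with 0%. That last hairpin was singled out after its values were seen. In the other 9 cases neither arm was measured on either array.

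By arm, 8 of 26 members ending in 3p were measured, with a median difference of -1.43, and 2 of 25 ending in 5p, with a median of -1.20. Of the 10 members with no arm in their name, 4 were measured, with a median of -1.27. All 6 members seen on the control array alone were 5p strands.

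For those 6 the knockout side has only an upper limit, namely the lowest scaled signal above background on that array or the probe's own signal where that was higher. For miR-467c-5p the limit was its own knockout signal, so its 2.64-fold lower level is the measured ratio (the deposited log2 values differ by -1.19). It had unscaled mean intensities of 41.4 ± 5.59 in the control and 20.8 ± 2.64 in the knockout (SD over spots), and 47.4% of its knockout spots were still marked as above background. miR-669b-5p was at least 2.45-fold lower, with 36.1 ± 4.90 and 10.2 ± 3.55. miR-466m-5p was at least 2.32-fold lower, with 34.2 ± 4.11 and 8.69 ± 3.48. All 3 had every control spot above background.

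Smaller bounds came from the other control-only strands. miR-466h-5p was at least 1.80-fold lower, with 26.6 ± 3.95 in the control and 9.17 ± 3.02 in the knockout. miR-669l-5p was at least 1.62-fold lower, with 24.1 ± 3.91 and 8.49 ± 3.30, and only 72.5% of its control spots were above background. The smallest bound was that of miR-466f-5p, at least 1.59-fold. Without scaling between the arrays the 6 values ran from 1.20-fold to 1.98-fold.

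The 41 members seen on neither array, 13 of the miR-466, 10 of the miR-467, 15 of the miR-669 and all 3 of the miR-297 family, had brightest-probe intensities with a median of 3.31 in the control and 1.90 in the knockout, unscaled. The negative-control spots had medians of 5.02 and 4.93. Their signal was too low for a difference or a bound under the rule used here. In 4 of them some spots were above background, and these did not share a direction. On the knockout array miR-467b-5p had 19.4 against 7.27 on the control, and miR-467e-5p had 14.9 against 5.66. The deposited log2 table lists both at its floor in the control and above it in the knockout. On the control array miR-669e-5p had 14.7 against 2.69 on the knockout, beside the miR-669f-5p values given above. miR-467b-5p and miR-467e-5p were named after their values were seen, and they are the silent members with any spot above background on the knockout array.

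In RefSeq's GRCm38.p6 annotation the families have 81 hairpin genes, of which 71 lie inside Sfmbt2 (chr2:10370440-10595253) and 10 elsewhere. The 71 fill chr2:10466663-10518279, from 96.2 to 147.8 kb after the start of Sfmbt2. Going by the name on the array, 8 of the 14 measured members have all their hairpins there, 5 have none there, and miR-466f-3p has 3 there and 1 on chromosome 13. The 5 others are named after single hairpins within the spans of other genes. For miR-669n this holds for the name only, since it also stands for miR-669c-5p, whose hairpin lies inside Sfmbt2. miR-466i (both arms) lies within Cdk13 at chr13:17747473-17747593, miR-466q within Tnik at chr3:28419943-28420018, miR-467f within Fxr2 at chr11:69635400-69635519 and miR-669n within Slc30a7 at chr3:115979902-115979955.

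Members placed by name inside and outside Sfmbt2 were both lower on the knockout array. The 8 from the cluster had a median difference of -1.33 (range -1.68 to -0.12), and 7 of them were at least 2-fold lower. The 5 from elsewhere had a median of -1.23 (range -1.51 to -0.96), and 4 were at least 2-fold lower. The value of -0.96 is that of miR-669n, which also stands for miR-669c-5p of the cluster. Along the cluster, miR-466m-3p at 96.2 kb and miR-669h-3p at 147.7 kb, near its ends, had like differences of -1.54 and -1.68. miR-669f-3p had -0.12, and the hairpin of that name, at 96.8 kb, is a neighbour of miR-466m-3p and of the first miR-466f hairpin at 96.5 kb. Its probe also stands for miR-669a-3p and miR-669o-3p, whose hairpins lie elsewhere in the cluster. Its value can therefore not be placed at 96.8 kb. Names were matched to hairpins through RefSeq, and an array cannot tell which of several hairpins gave a strand.

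**Figure D3:**
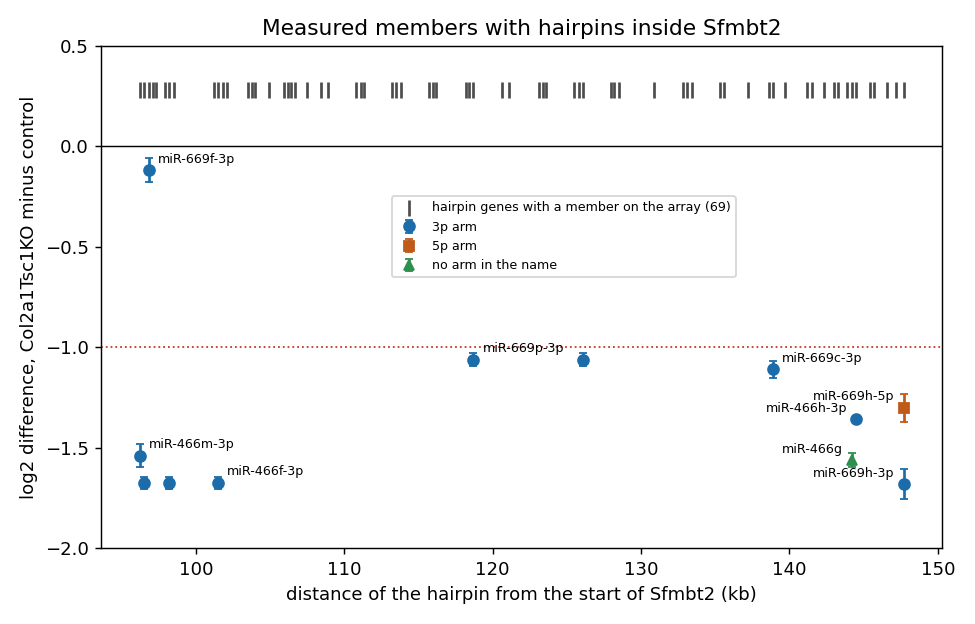
Log2 difference of the measured members against the distance of their hairpins from the start of Sfmbt2 in kb, with error bars for the standard error over spots and ticks for the hairpin genes of members on the array. Members are placed by the name on the array, and one with several hairpins of that name is drawn at each. Further names that a probe stands for are not drawn, such as miR-669c-5p for miR-669n. The lower values lie near both ends of the cluster, but so does the point of miR-669f-3p, at 96.8 kb with -0.12. That probe also stands for miR-669a-3p and miR-669o-3p from elsewhere in the cluster. Between the ends only miR-669p-3p and miR-669c-3p are drawn.

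A feature that the names did not use was the repeat. A run of at least 6 bases of alternating G and U or A and C, read from the mature sequence or else from the longest probe, was present in 47 of the 61 members (77%) and in 34 of the 1186 miRNAs outside the families (2.87%). The median longest run was 7 bases in members and 3 outside. The median run was longer in measured than in silent members: it was 10.5 bases among the 14 seen on both arrays, 7 among the 6 seen on the control array alone and 6 among the 41 seen on neither. The run was present in 25 of the 26 member probes measured on both arrays and in 90 of the 128 measured on neither (70.3%). Among all 3101 miRNA probes, members included, 6.22% had it. Outside the families it was present in 2.42% of the 2939 probes and in 3.11% of the 450 measured on both arrays.

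Outside the families, 8 measured miRNAs carried such a run. They share the repeat with the families and not the name. The mature strands of miR-206-3p and miR-342-3p are left out here. Those shown, from RefSeq GRCm38.p6 with the run in capitals, belong to the lowest differences and to let-7b-5p, which had the highest.
miR-3082-5p: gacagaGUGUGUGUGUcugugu
miR-574-3p: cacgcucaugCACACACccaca
miR-1187: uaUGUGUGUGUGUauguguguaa
miR-574-5p: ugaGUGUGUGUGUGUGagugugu
let-7b-5p: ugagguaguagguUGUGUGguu
miR-3082-5p had a scaled intensity of 361 in the control and 126 in the knockout (-1.52 ± 0.02), and miR-574-3p had 101 and 44.9 (-1.17 ± 0.03). miR-1187 had 128 and 61.4 (-1.06 ± 0.02). miR-574-5p, the opposite arm of miR-574-3p, had 483 and 249 (-0.95 ± 0.02). These 4 all stood below the median of the measured miRNAs.

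The other 4 spread further. miR-6378 had 154 and 93.8 (-0.71 ± 0.03). miR-206-3p, a miRNA of skeletal muscle, had 26.0 and 26.9 (0.05 ± 0.08), and miR-342-3p had 95.0 and 143 (0.59 ± 0.02). The longest probe of miR-342-3p held a run of only 3 bases. let-7b-5p, of the let-7 family known from developmental timing, had 1915 and 4597 (1.26 ± 0.01). The 8 together had a median of -0.83, with 5 lower, 3 at least 2-fold lower and 1 at least 2-fold higher, whereas the 235 without a run had a median of -0.16. With the run set at 8 bases or more, miR-3082-5p, miR-1187 and miR-574-5p remained outside the families, with a median of -1.06 against -0.15 for the other 240. Among the members the order was the reverse, with a median of -1.23 over the 11 with such a run and -1.54 over the 3 without. With only 3 to 8 run-bearing miRNAs outside the families, these values are a description of these arrays.

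The measured member without a run, miR-669h-5p, had -1.30. Of the 235 miRNAs outside the families with no run, 30 were at least 2-fold lower and 39 at least 2-fold higher.

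**Figure D4:**
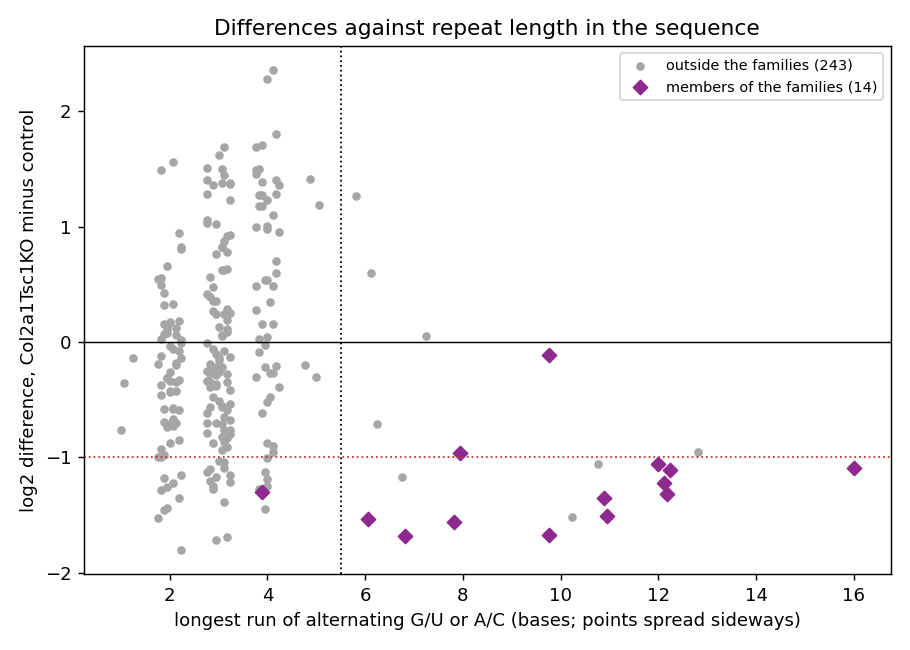
Log2 difference of the 257 measured miRNAs against the longest run of alternating G and U or A and C (bases; points spread sideways for legibility), with diamonds for the 14 members and circles for the 243 others. To the right of the dotted line, at 6 bases or more, 13 members and 8 others are drawn, and the others range from -1.52 to 1.26.

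Low signal went with lower differences over the array as a whole, and its part in the members' values was not tested. With the measured miRNAs split at their median level, the 129 dimmer ones had a median difference of -0.25 and the 128 brighter ones of 0.04. Of the members, 10 lay among the dimmer, with a median of -1.40, and 4 among the brighter, with a median of -1.27.

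Markers of the tissue and of other cells also moved between the arrays. Each of the 14 markers was measured on both arrays, and none was at 0. The summed scaled intensity of the 4 chondrocyte miRNAs (both arms of miR-140 and of miR-455) was 2322 in the control and 5268 in the knockout, with differences from -0.03 to 1.71. The sum of 4 skeletal muscle miRNAs went from 1410 to 737 (-0.996 to 0.05), and that of 3 leukocyte miRNAs from 9450 to 4332 (-1.17 to 0.64). That of 2 red cell miRNAs went from 2340 to 3472 (0.55 to 1.51), and the endothelial miR-126-3p from 1492 to 1908 (0.35). In such bulk samples fewer cells of a type and less RNA per cell cannot be told apart, and the part of these cells in the members' values was not tested.

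Processing changed the size of the differences more than their direction. miR-466f-3p, miR-466h-3p, miR-466i-3p, miR-466i-5p, miR-466q, miR-467f, miR-669n and miR-669p-3p were lower on the knockout array in all 14 alternatives. So were miR-669h-3p and miR-669h-5p in the 13 that gave them a value. miR-466g, miR-466m-3p and miR-669c-3p were higher in 1 alternative, the software's own total gene signal. That total can carry over the sum of a neighbouring miRNA, which it did by over 5% in 8 of 20 members with a probe above background in the control and in 6 of 14 in the knockout. The 3 values as written were 0.55, 4.82 and 1.05, and with the carried sum removed they were -1.38, -1.25 and -0.83. The authors' deposited log2 values gave 16 members above the floor on both arrays, 15 of them lower, with a median of -1.19. The lowest of these values, -3.67, was that of miR-467a-3p, which had 0% of its spots well above background on both arrays.

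**Figure D5:**
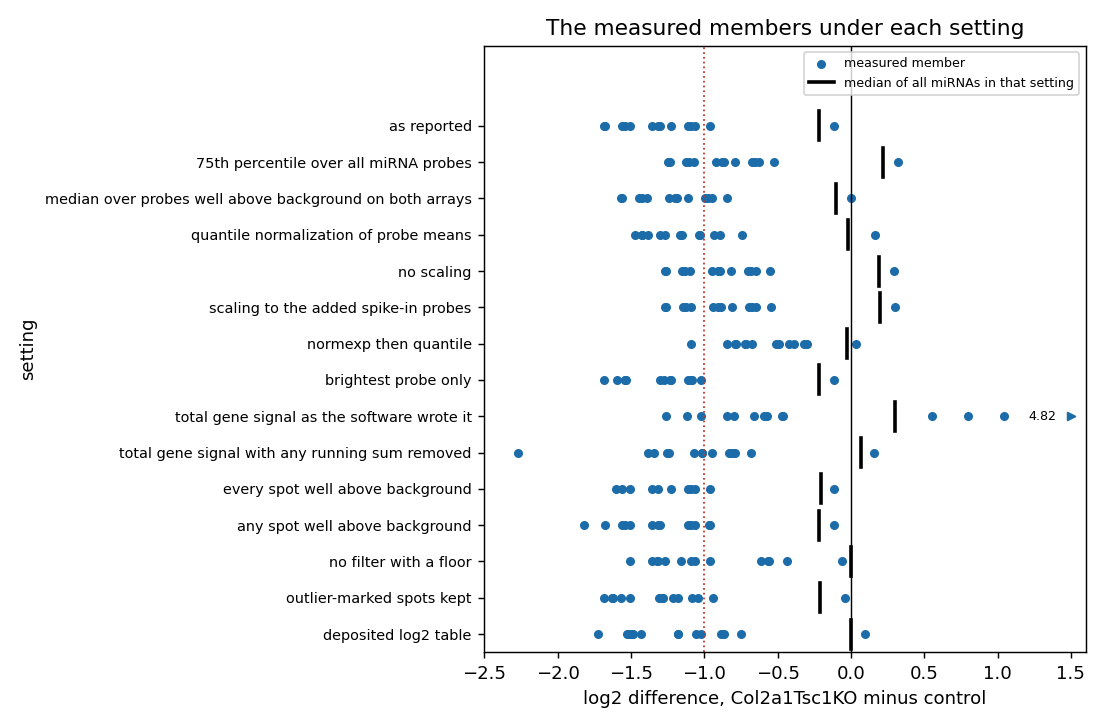
Log2 difference of the measured members (points) under the reported processing and 14 alternatives, with a bar at the median of all measured miRNAs in each, a dotted line at 2-fold lower and an arrow for 1 value beyond the axis (miR-466m-3p at 4.82). The members shift together with the scaling, and miR-669f-3p lies above all other members except under the software's total gene signal.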

How the data were processed

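The deposited scanner files come from Agilent Feature Extraction 10.7, per the submitters' processing notes and the headers. Per the file headers it wrote a background-subtracted intensity with spatial detrending for each spot and no scaling between arrays. The authors also deposited a table of log2 values per miRNA. Its making is not described by any label or header. Its columns correlated with the logged sums of probe totals (r = 0.994 on the control array), and it has the direction of the signals.

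From the spot intensities, spots marked as outliers were left out, values under 1 were set to 1, log2 values were averaged per probe, and each array was scaled as described above. Probes well above background on both arrays entered the differences. Normexp (offset 50) and quantile normalization used limma 3.58.1 in R 4.3.3. Python 3.11.15 did the rest. Sequences and hairpin positions come from RefSeq tables of GRCm38.p6, and 1017 of the 1247 miRNAs matched a mature sequence.

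Every member above background on 1 or both arrays was named, as was every measured miRNA outside the families with a repeat run. The members and lists were chosen with earlier results of these data known. No p-value was computed, since each group has 1 array, and the number of arrays limits the precision. The calculation was tested on simulated data. Alternatives covered scaling, background correction, probe choice, filters, software totals and the deposited log2 values.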

Additional observations from a re-analysis of the deposited data

How the results depend on the processing

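No paired analysis was possible because each group has 1 array, and for the same reason no array could be left out. A median counted as moved when it shifted by more than 0.40, the SD over the 14 members' differences. Where medians are listed, they are for all members, the miR-466, miR-467 and miR-669 families, 3p, 5p and members with no arm named, in this order. They were -0.87, -1.07, -0.88, -0.65, -0.995, -0.76 and -0.83 with the 75th percentile over all miRNA probes. They were -0.90, -1.10, -0.91, -0.67, -1.02, -0.79 and -0.86 with no scaling, and -0.89, -1.09, -0.90, -0.67, -1.02, -0.78 and -0.86 with scaling to the 4 added spike-in probes. These 3 choices moved the median of all measured miRNAs by 0.41 to 0.44 and left 5 members at least 2-fold lower. The split of all miRNAs past 2-fold went from 45 lower and 40 higher to 13 and 60 with the percentile over all probes, and to 13 and 59 with the other 2. Normexp gave -0.59, -0.79, -0.72, -0.35, -0.50, -0.70 and -0.70, with 1 member at least 2-fold lower and 3 lower and 23 higher among all 257. The software's total gene signal gave -0.58, -0.59, -0.69, -0.52, -0.57, -0.59 and -0.56, with 3 of 16 members at least 2-fold lower and 2 higher. Its split, over the 304 miRNAs it covered, was 24 lower and 80 higher. With the carried sum removed the split, over 257 miRNAs, was 20 and 55. With no filter and a common floor all 7 medians were 0, because the 41 silent members sit at the floor on both arrays.

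The direction turned for miR-669f-3p at 0.32 (percentile over all probes), 0.16 (quantile), 0.29 (no scaling), 0.30 (spike-in), 0.032 (normexp), 0.80 (software total), 0.16 (carried sum removed) and 0.095 (deposited log2 values), and its cause was not tested. With the software total it turned for miR-466g (0.55), miR-466m-3p (4.82) and miR-669c-3p (1.05), which were all negative again once the carried sum was removed. Of 193 values of single members under alternatives, 59 stayed within 2 standard errors over spots, 123 moved beyond them in the same direction and 11 reversed. The median of the 8 repeat-bearing miRNAs outside the families was -0.42 with no scaling and -0.43 with normexp, and -1.06 over the 3 with a run of at least 8 bases. Reading the run from the longest probe, a choice made after seeing the data, gave -0.95 over 7 of them. Counting identical probes once changed nothing, since 0 were identical. The small signals of the 41 silent members, and of strands just above background such as miR-466m-3p and miR-669h-5p on the knockout array, limit what these arrays can show.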
